A study of Mus musculus with 50 samples.

Results

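Transcripts of the Hedgehog pathway were examined in the wound bed of amputated mouse digits. The genes are the ligands Shh and Ihh, the receptor Ptch1, the ligand-binding inhibitor Hhip, the membrane transducer Smo and the transcription factors Gli1, Gli2 and Gli3, 8 of the 21954 genes in the deposited tables. They were chosen by name with their measured levels in these digits, by time, group and labelled amputation percent, already known. For that reason the levels and fold changes of the 8 genes in digits are a description and carry no p-values. Tests are given for 37 other genes of the pathway and for cultured macrophages, which the choice of the 8 genes did not use. The list of 37 was also drawn up with earlier results of these data known, so its tests in digits share that limit.

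In Hedgehog signalling a secreted ligand binds Ptch1 and lifts its block on Smo, and Smo then acts through the primary cilium on the Gli proteins. Gli1 is an activator, Gli3 acts largely as a repressor in the absence of ligand, and Gli2 carries much of the activating function. Ptch1, Gli1 and Hhip are themselves transcribed in response to the signal, and Ptch1 and Hhip both restrain it. Shh patterns the embryonic limb bud and the growing hair follicle, whereas Ihh is made by chondrocytes of growing bone and works in a loop with the parathyroid hormone-related protein Pthlh.

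The digits came from male C57Bl/6 mice aged 9 to 10 weeks, in which digit 3 of both hindlimbs was cut through the distal terminal phalanx (P3). No genotype or treatment other than amputation is given for any digit group. The series labels 29 digits as non-regenerative, with 60% to 80% of the phalanx removed, sampled over 9 times (0, 3, 6, 12 and 24 hours, then 3, 7, 14 and 21 days) with 3 digits each and 5 for day 7. It labels 12 digits as Medium, called intermediate here, with 41% to 55% removed, sampled over 4 times (0 and 24 hours, then 14 and 21 days) with 3 digits each. Of the 29 non-regenerative digits, 17 carried a level above 67% and 12 a level of 67% or less, so the label and the level are not interchangeable. Macrophages grown from the bone marrow of female C57BL/6 mice were sequenced as 3 M0 libraries (baseline), 3 M1 libraries (24 hours with IFN-γ and LPS) and 3 M2 libraries (24 hours with IL-4). Digits with lower levels of amputation were not analysed here.

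Expected counts summed to between 1468749 and 13011782 per digit, with a median of 6835347, and to between 15683424 and 27904773 per macrophage library. Replicate 3 at 3 hours was the shallowest digit, and replicate 2 at 14 days of the non-regenerative group stood apart, with normalized TPM summing to 3362790 against 1434850 or less in every other digit. By date in their labels 24 digits belonged to an earlier and 17 to a later period, and all of the 3- and 12-hour digits and the intermediate digits at 21 days were from the earlier period. A mark, date and side were shared by 2 digits in 5 cases, once between groups at the same time (intermediate replicate 1 and non-regenerative replicate 3 at 14 days). The labels call the sampled cells a mixture around the wound bed. Epidermal keratinocyte markers (Krt5, Krt14, Krt1, Krt10, Trp63) summed to 21196 normalized TPM or more in each digit, fibroblast markers to 588 or more, and none of the 10 marker lists had a defining gene at 0 in all digits of either group. In such bulk tissue fewer cells of a type and less RNA per cell cannot be told apart.

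All 8 genes lie on the autosomes of GRCm38 (GENCODE vM21). Shh spans chr5:28456815-28467256 and Ihh chr1:74945315-74951672, both on the minus strand. Ptch1 spans chr13:63508328-63573598 on the minus strand, Hhip chr8:79965851-80058006 on the minus strand and Smo chr6:29735503-29761365 on the plus strand. Gli1 spans chr10:127329882-127341974 on the minus strand, Gli2 chr1:118834132-119053619 on the minus strand and Gli3 chr13:15463235-15730026 on the plus strand. Of these, Ihh alone overlapped no other annotated gene, and Gli1 overlapped the protein-coding gene Arhgap9 on the opposite strand. The strand setting of the counting is not given in the sources used here, so reads from overlapping genes on opposite strands may not have been separated.

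The promoters of Ihh, Ptch1 and Hhip are shown because these genes carried the class and time patterns described next. RefSeq's promoter table (GRCm38.p6) held 6 of the 8 genes. Each line gives the 250 bases before the transcript start, 5′ to 3′ on the gene's minus strand, with every CG pair in capitals. None of these 3 windows overlapped an annotated exon. They are chr1:74951673-74951922 for Ihh, chr13:63565736-63565985 for Ptch1, ahead of one of several annotated Ptch1 starts, and chr8:80058009-80058258 for Hhip.
Ihh: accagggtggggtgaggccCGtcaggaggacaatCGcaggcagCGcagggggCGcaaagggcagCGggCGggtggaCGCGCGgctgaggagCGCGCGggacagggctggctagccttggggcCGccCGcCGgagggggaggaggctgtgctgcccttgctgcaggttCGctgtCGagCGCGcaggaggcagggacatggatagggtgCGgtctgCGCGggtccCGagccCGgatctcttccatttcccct
Ptch1: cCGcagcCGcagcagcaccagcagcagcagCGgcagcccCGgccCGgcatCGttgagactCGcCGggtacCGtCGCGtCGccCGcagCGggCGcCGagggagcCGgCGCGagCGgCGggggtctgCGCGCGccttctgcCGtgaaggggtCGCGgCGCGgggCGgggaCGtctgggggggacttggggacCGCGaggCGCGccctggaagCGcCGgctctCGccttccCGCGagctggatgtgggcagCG
Hhip: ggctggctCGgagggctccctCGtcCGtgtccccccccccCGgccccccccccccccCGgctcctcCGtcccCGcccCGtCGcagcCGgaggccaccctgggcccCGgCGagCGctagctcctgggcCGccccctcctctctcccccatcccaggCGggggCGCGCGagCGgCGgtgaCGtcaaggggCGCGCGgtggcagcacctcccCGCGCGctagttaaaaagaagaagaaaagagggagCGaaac
The Ihh window held 24 CG pairs at 72.0% GC, the Ptch1 window 41 at 78.4% and the Hhip window 28 at 76.0%, against medians of 6 CG pairs and 52.4% GC over the 32851 promoters of the table. The Gli binding motif GACCACCCA, or its reverse complement TGGGTGGTC, was searched on both strands from 250 bases before to 50 after each start. It occurred in 83 promoters, 0.253% of the table, and in 0 of the 6 windows of these genes, which says only that these letters are not in those windows.

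The ligands were at the limit of detection. Shh had no count in 36 of 41 digits, where a count of 0 allows up to between 0.25 and 2.04 CPM (counts scaled to library size) depending on depth (3 counts per library, counting error only). The 5 digits with reads held 4 and 5 counts (replicates 1 and 2 of the intermediate group at 24 hours), 3 counts at 24 hours, 3 at 3 days and 9 at 21 days in the non-regenerative group. Both groups thus had digits with and without Shh reads, and the counts were too few to order the groups.

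Ihh reads were concentrated in the intermediate digits. They were present in 10 of 12 intermediate digits and summed to 52 counts, or 0.598 CPM. In the 12 non-regenerative digits of the same times they were present in 6 and summed to 8 counts, or 0.0727 CPM. In normalized TPM, the authors' per-length level, the intermediate digits held 0.298, 1.1 and 1.1 at 0 hours and 0.229, 0.848 and 0.568 at 14 days. The non-regenerative digits held 0, 0.14 and 0.0804 at 0 hours and 0.0920, 0 and 0 at 14 days. At these times each intermediate digit was above each non-regenerative digit. At 24 hours the intermediate digits held 1.26, 0 and 0.17 and at 21 days 0.166, 0.350 and 0, which overlapped the non-regenerative digits, at 0.113 or less. No non-regenerative digit at any time had more than 2 Ihh counts, and every digit at 3 hours, 6 hours and 7 days was at 0. In replicate 1 at 3 days, a time without intermediate digits, 2 counts gave 0.669 normalized TPM. That value was above every intermediate digit at 21 days and within the intermediate range at 0 hours, 24 hours and 14 days.

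Among genes with a mean of at least 1 normalized TPM, a level that Ihh did not reach, intermediate digits lay wholly above non-regenerative digits for 5.0% (0 hours), 8.72% (24 hours), 3.21% (14 days) and 10.6% (21 days) of 13691 genes. Markers of cells that could carry Ihh were measured beside it. The 7 cartilage markers summed to between 70.2 and 1061 normalized TPM in intermediate digits (median 123) and between 61.5 and 2179 in non-regenerative digits of the same times (median 161). The 8 nail and hair matrix markers in the table summed to between 425 and 6467 (median 770) and between 102 and 7524 (median 365). The cartilage sums overlapped and were not higher in the intermediate group by the median, and the matrix sums were higher by the median with overlap. The part of these cells in the Ihh difference was not tested.

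**Figure D1:**
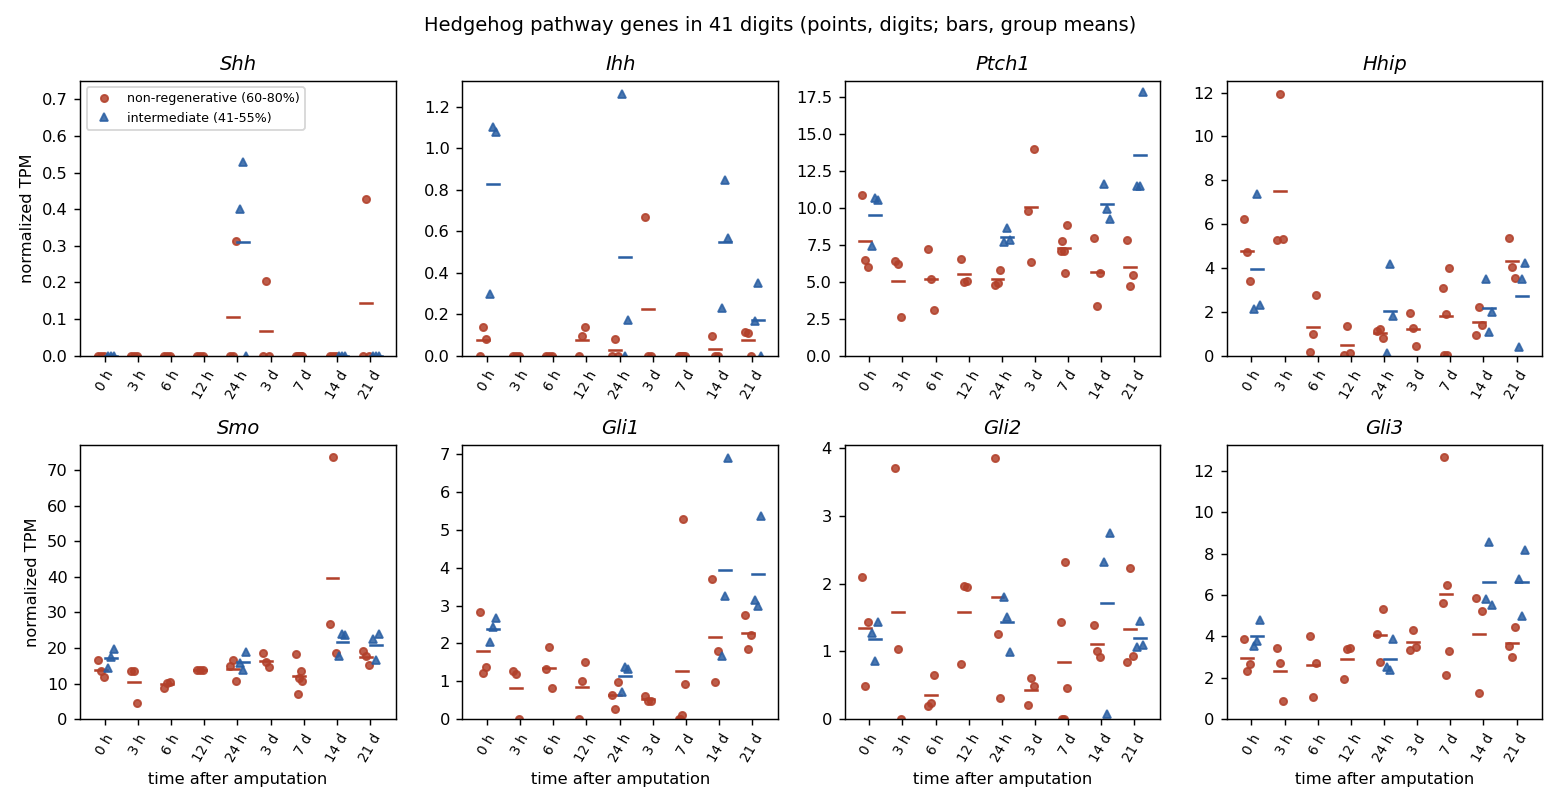
Normalized TPM of the 8 genes by time after amputation, 1 point per digit, circles for the 29 non-regenerative and triangles for the 12 intermediate digits, bars for group means. Shh was at 0 in 36 digits, Ihh and Ptch1 triangles sit high, and Hhip circles drop after 3 hours.

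Ptch1, the receptor, was detected in all 41 digits, between 2.58 and 17.8 normalized TPM. At 0 hours intermediate digits held 7.44, 10.7 and 10.5 and non-regenerative digits 10.9, 6.47 and 5.99. After 24 hours the values were 7.68, 8.66 and 7.82 against 4.76, 4.89 and 5.82, after 14 days 11.6, 9.95 and 9.22 against 7.97, 3.36 and 5.56, and after 21 days 11.5, 11.5 and 17.8 against 7.85, 4.71 and 5.47. The groups overlapped at 0 hours and did not overlap at 24 hours, 14 days and 21 days, when the intermediate digits were higher; the shares of all genes with this pattern are the 8.72%, 3.21% and 10.6% given above. Over the 4 times together the mean was 10.4 ± 2.80 (SD, n = 12) in intermediate and 6.14 ± 1.97 (n = 12) in non-regenerative digits, and 3 of the 12 non-regenerative digits exceeded the lowest intermediate digit.

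In edgeR fits of the counts, Ptch1 in intermediate against non-regenerative digits differed on the log2 scale by 0.30 ± 0.25 (SE; 0 hours), 0.65 ± 0.19 (24 hours), 0.98 ± 0.56 (14 days) and 1.09 ± 0.27 (21 days). With each digit left out in turn the 14-day value lay between 0.63 and 1.43 and the 21-day value between 0.85 and 1.37. Beyond the group difference at 0 hours, the fitted difference in Ptch1 was 0.35 ± 0.50 (24 hours), 0.70 ± 0.50 (14 days) and 0.82 ± 0.50 (21 days). A change of the group difference with time was thus not resolved. Calls required an adjusted p (Benjamini-Hochberg, over all genes tested) under 0.05 and more than a 2-fold change. By that rule 0 of the 6 Hedgehog genes that passed the filter on low counts were called in any of the 4 comparisons between the groups. The share of all genes called was 0%, 0%, 0% and, after 21 days, 0.648%. With DESeq2 Ptch1 was the 1 Hedgehog gene called, at 21 days. Over these 4 comparisons DESeq2 called 361 genes in all where edgeR called 89. The share of all genes that DESeq2 called at 21 days alone is not given, so its Ptch1 call has no background rate beside it. That call also comes from values known when the genes were chosen and is given as a description. The 3 intermediate digits at 21 days were all of the earlier and the 3 non-regenerative digits all of the later dates, so group and date cannot be told apart at that time. The remaining non-regenerative times held Ptch1 at 6.39, 6.21 and 2.58 (3 hours), 7.18, 5.18 and 3.10 (6 hours), 6.52, 4.96 and 5.03 (12 hours), 9.79, 6.35 and 14 (3 days) and 5.6 to 8.85 (7 days). Of these, 2 of 3 digits at 3 days and 2 of 5 at 7 days lay above the lowest intermediate digit.

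Markers of bone, cartilage, nail matrix and fibroblasts were measured beside Ptch1. At 21 days all 5 osteoblast markers (Sp7, Bglap, Ibsp, Dmp1, Alpl) and 6 of 7 cartilage markers had a fitted difference above 0 in intermediate digits, with list medians of 1.33 and 2.53 on the log2 scale, and the median over all genes was -0.02. The 8 nail and hair matrix markers went the other way at 21 days, with 6 below 0 and a median of -1.28. At 24 hours 0 of these 8 were below 0 (median 2.54) and at 14 days 1 was (median 1.03), while the osteoblast medians were 0.55 and 1.57 and the cartilage medians -0.10 and -0.21. Of 7 fibroblast markers 2, 2 and 1 were below 0 at 24 hours, 14 days and 21 days, with medians of 0.30, 0.20 and 0.47. None of these markers was called at the 3 times. Their part in the Ptch1 difference was not tested.

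Hhip, which binds the ligands at the cell surface, varied most with time. Non-regenerative digits held 6.21, 4.71 and 3.4 normalized TPM at 0 hours and 5.29, 11.9 and 5.31 at 3 hours. They held 0.144, 0.974 and 2.76 after 6 hours and 0.0409, 1.33 and 0.111 after 12 hours. Hhip was at 1.1, 1.2 and 0.815 after 24 hours and at 1.95, 1.25 and 0.454 after 3 days. At each of these 4 later times every digit was below every 0-hour digit, as were 14.5% (6 hours), 18.7% (12 hours), 18.1% (24 hours) and 7.54% (3 days) of 13691 genes. The 5 digits at 7 days ranged from 0.0352 to 3.98, those at 14 days held 0.920, 2.22 and 1.41, and those at 21 days, at 5.39, 4.06 and 3.55, overlapped the 0-hour digits again. Against 0 hours, the edgeR difference was -3.67 ± 0.72 at 12 hours (mean normalized counts of 11.7 against 167) and -2.10 ± 0.27 at 24 hours (43.1 against 186), on the log2 scale. Without replicate 2 at 12 hours, the digit that held 1.33, the 12-hour difference was -5.81 ± 0.52.

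Hhip was the 1 of 6 Hedgehog genes called lower at 12 hours, where 11.4% of all genes were called (4.64% lower), and at 24 hours, where 10.7% were called (5.14% lower). At the other times 0 of the 6 were called, beside 0% (3 hours), 4.85% (6 hours), 0.723% (3 days), 0.0537% (7 days), 0% (14 days) and 0.452% (21 days) of all genes. All of these comparisons share the same 3 digits at 0 hours. The call at 12 hours was lost without replicate 3 of that time, and in a joint fit of all 41 digits Hhip was not called at any time. Over the whole time course Hhip was the 1 of 6 called, beside 7.62% of all genes, and 0 of the 6 were called in 18 of the 29 fits that left out 1 digit and in the fit without the 2 digits that stand apart. These calls come from values known when the genes were chosen and are given as a description. Intermediate digits held 2.13, 7.38 and 2.33 at 0 hours and 0.0922, 4.18 and 1.80 at 24 hours, and these overlapped. Hhip was at 0.406, 3.51 and 4.23 in them at 21 days.

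Transcripts of cell type markers in the wound bed changed over the same hours. The 4 neutrophil markers (S100a8, S100a9, Csf3r, Cxcr2) summed to between 20.1 and 21.1 normalized TPM at 0 hours, 390 and 1100 at 12 hours and 1130 and 1256 at 24 hours, and 4 of 4 and then 3 of 4 were called higher. Of 7 fibroblast markers 1 was called lower at 12 hours and 3 at 24 hours, and of 8 nail and hair matrix markers 2 were called lower at each time. Of 3 sweat and sebaceous gland markers tested 1 was called lower at each time (list medians -1.35 and -1.12), and of 5 keratinocyte markers 1 was called lower at 12 hours and 1 higher at 24 hours. Their part in the Hhip level was not tested.

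Smo, the transducer, was the most abundant of the 8 genes per length, with a median of 15.3 normalized TPM over 41 digits. Means were 19 ± 3.66 in the 12 intermediate digits and 16.5 ± 4.31 in the 11 non-regenerative digits of the same times without the digit that stood apart, which alone held 73.6. The fitted intermediate difference lay between -0.56 and 0.30 on the log2 scale at the 4 times. Smo in non-regenerative digits at 14 days was 26.7, 73.6 and 18.6, and 1.15 ± 0.52 above 0 hours. With each digit left out in turn the difference from 0 hours lay between 0.67 and 1.41. Smo was called there only when all 41 digits were fitted together, and that joint fit was not repeated without replicate 2.

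Gli1, the activator and target, was low at 1 to 3 days. It was at 2.83, 1.22 and 1.37 normalized TPM in non-regenerative digits at 0 hours, at 0.644, 0.273 and 0.976 at 24 hours and at 0.624, 0.471 and 0.482 at 3 days. Every 24-hour and 3-day digit was below every 0-hour digit, and the fitted differences were -1.45 ± 0.64 and -1.74 ± 0.60 (log2, SE), neither called; the shares of all genes in that order are the 18.1% and 7.54% given with Hhip. At 21 days the non-regenerative digits held 2.76, 1.86 and 2.21 and the intermediate digits 3.15, 3.0 and 5.36, which did not overlap, as for 10.6% of all genes. The fitted 21-day difference was 0.67 ± 0.35 and ran from -0.50 to 0.71 over 8 alternatives, so its sign was not constant. For every gene, group and date cannot be told apart at that time. Intermediate digits at 24 hours held 0.707, 1.39 and 1.33, below their 0-hour values of 2.04, 2.44 and 2.67, as for 11.3% of all genes, with a difference of -1.01 ± 0.43. Intermediate 14-day digits spread from 1.65 to 6.90, and at 7 days 4 of 5 non-regenerative digits held 0.934 or less while replicate 4 held 5.29.

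Gli2 and Gli3 showed less ordered levels. Gli2 ranged from 0 to 3.85 normalized TPM over the digits, with 3 digits at 0, and means of 1.38 ± 0.69 in intermediate and 1.4 ± 0.96 in non-regenerative digits of the same times. Gli3 ranged from 0.858 to 12.7. At 21 days it held 6.76, 5.0 and 8.17 in intermediate against 3.55, 2.98 and 4.47 in non-regenerative digits, which did not overlap, again as for 10.6% of all genes, with a difference of 0.79 ± 0.24 (log2, SE). At 24 hours the order was the other way, 2.52, 2.37 and 3.88 against 4.09, 2.76 and 5.31, with overlap. The highest Gli3 value was in replicate 2 at 7 days, a digit in which 54.0% of all genes were at 0, Gli1 and Gli2 among them.

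Ordered by mean over the 13 digit groups, Ptch1 was highest in the intermediate digits at 21 days, Ihh in those at 0 hours, Gli1 in those at 14 days and Hhip in the non-regenerative digits at 3 hours. Neighbours in that order overlapped in 12 of 12 cases for each gene except Gli1, with 11 of 12. Over the 41 digits the Spearman correlation between pairs of the 8 genes was at most 0.48 (Ihh with Smo), and was 0.40 for Ptch1 with Gli1, 0.40 for Ptch1 with Ihh and 0.10 for Ptch1 with Hhip. These digits share times, groups and depth, and the values are descriptive.

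The labelled amputation level was then used in place of the group, with time as a factor, over all 41 digits. Each 10 percentage points more of the phalanx removed went with a difference in Ptch1 of -0.38 ± 0.08 (log2, SE), in Gli3 of -0.24 ± 0.11 and in Gli1 of -0.24 ± 0.23. For Gli2 it was -0.09 ± 0.21, for Smo -0.03 ± 0.07 and for Hhip 0.03 ± 0.21. By edgeR 0 of 14996 genes, 0%, were called for the level, the Hedgehog genes included, with 1244 genes at an unadjusted p under 0.05 and 12 called by DESeq2.

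The level was also fitted in subsets of digits and with a further term. These fits reuse the same 41 digits, and their values were known when the genes were chosen. Signs that recur are thus a description and no separate support. The Ptch1 slope was below 0 in each of these fits. It was -0.45 ± 0.21 within the 29 non-regenerative digits, -0.37 ± 0.07 over the 24 digits at times sampled in both groups, -0.36 ± 0.08 with the date period as a term, -0.21 ± 0.14 in digits of the earlier dates and -0.38 ± 0.14 in those of the later dates. Gli3 was also below 0, at -0.03 ± 0.18 in the earlier and -0.25 ± 0.22 in the later digits. Gli1 was at 0.23 ± 0.42 in the earlier and -0.17 ± 0.33 in the later digits. The earlier Gli3 slope and both of these Gli1 slopes lay within their standard error of 0, so their signs were not resolved. Ihh did not pass the filter on low counts over all 41 digits. Its slope was -1.06 ± 0.37 with no filter, -1.05 ± 0.45 with DESeq2 and, over the 24 digits at shared times, -1.1 ± 0.32. At the shared times intermediate digits held 52 Ihh counts and non-regenerative digits 8, so these slopes restate that group difference. They are no separate result, and no Ihh slope was obtained within the 29 non-regenerative digits alone.

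Slopes with the level were also fitted for markers of bone, nail matrix, fibroblasts and cartilage. The slope was below 0 for 5 of 5 osteoblast markers, with a median of -0.60, and for 8 of 8 nail and hair matrix markers, with a median of -0.39, among them Dmp1 at -0.79 ± 0.26 and Hoxc13 at -0.39 ± 0.12. It was below 0 for 6 of 7 fibroblast markers, with a median of -0.09, and for 3 of 7 cartilage markers, with a median of 0.08. The median over all genes was 0.00. None of these markers was called, and their part in the Ptch1 slope was not tested.

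**Figure D2:**
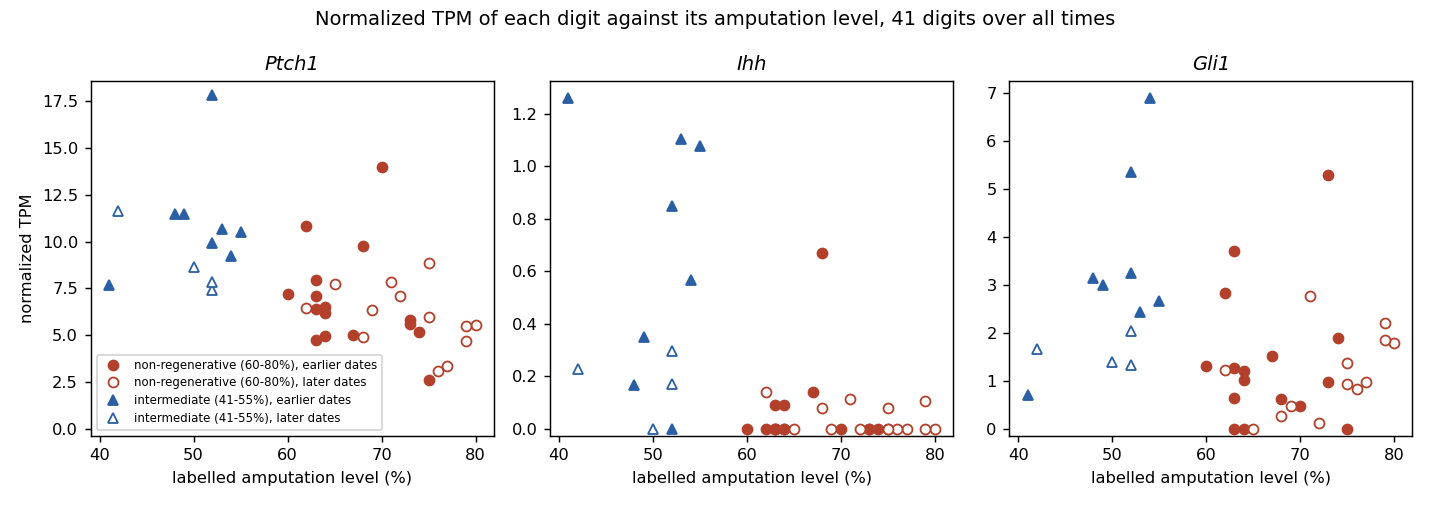
Normalized TPM of Ptch1, Ihh and Gli1 in each of 41 digits against the amputation level in the label, circles for non-regenerative and triangles for intermediate digits, filled for earlier and open for later dates. Ptch1 is lower towards 80%, the highest Ihh values lie below 60%, and Gli1 is scattered.

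**Figure D3:**
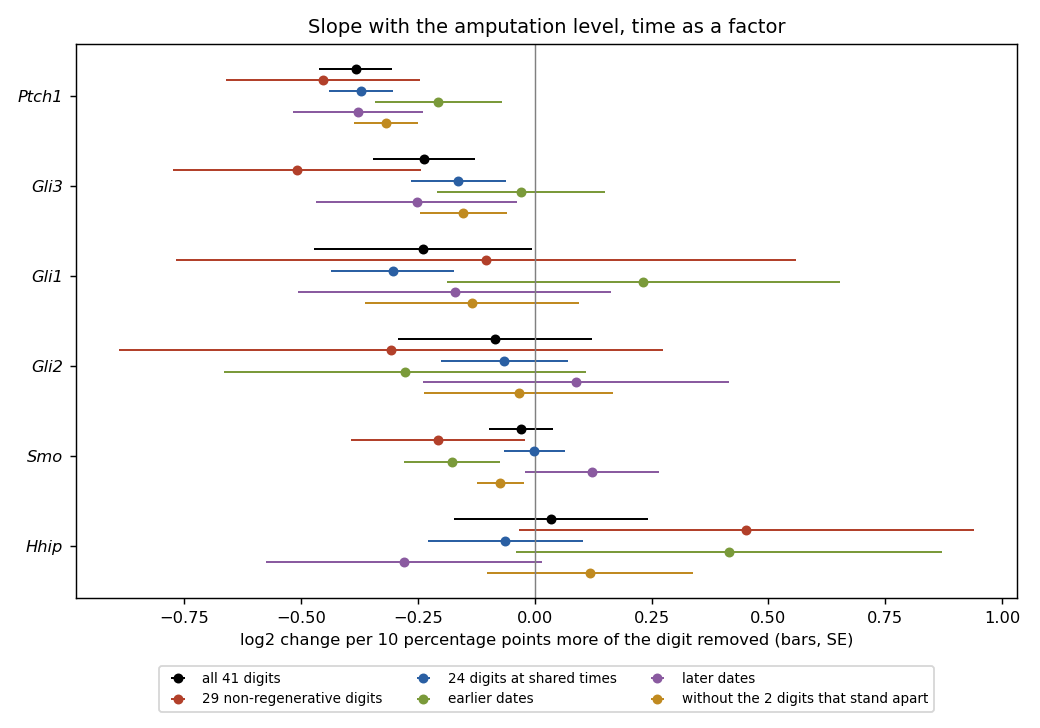
Fitted log2 change per 10 percentage points more of the phalanx removed for the 6 Hedgehog genes that passed the filter, with standard errors, over all 41 digits and in 5 subsets. Ptch1 points all lie left of 0, from -0.45 to -0.21, as do Gli3 points, from -0.51 to -0.03. The fits share digits, so a common sign is no separate support. Gli1, Gli2, Smo and Hhip points lie on both sides.

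The 37 other pathway genes comprised the ligand Dhh, 6 genes of ligand processing and release, 5 receptors and co-receptors, 11 cytoplasmic regulators, 5 genes of the primary cilium and 9 targets. Of those tested in non-regenerative digits, 2 of 27 were called at 6 hours, 2 of 28 at 12 hours and 4 of 28 at 24 hours, all lower except Pthlh at 24 hours, beside 4.85%, 11.4% and 10.7% of all genes. List medians were -0.44, -0.40 and -0.41 on the log2 scale, beside all-gene medians of -0.03, -0.03 and -0.04. In the comparisons of 3 hours and of 3, 7, 14 and 21 days 0 were called, with 3, 3, 0, 0 and 3 genes at an unadjusted p under 0.05, as for 10.8%, 11.1%, 4.34%, 7.70% and 7.20% of all genes. The smallest p-values there were those of Gas1 and Cdon (3 hours), Pthlh and Cdon (3 days), Ccnd1 and Cdon (7 days) and Gas1 and Pthlh (14 and 21 days), Pthlh at 3 days coming nearest with 2.58 ± 0.48 (adjusted p = 0.0599).

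The co-receptor Cdon, which presents ligand to Ptch1, fell at all 3 of these times. It held 34.1, 18.2 and 17.2 normalized TPM at 0 hours, 5.05, 6.31 and 5.63 at 6 hours, 6.53, 5.77 and 5.11 at 12 hours and 5.91, 4.14 and 6.63 at 24 hours. No digit at these times reached the lowest 0-hour digit, an order whose all-gene shares are given with Hhip, and by 21 days the digits held 23.9, 21.3 and 32.0. The differences were -2.22 ± 0.31 (log2, SE, adjusted p = 0.0091), -2.05 ± 0.26 (adjusted p = 0.0027) and -2.0 ± 0.30 (adjusted p = 0.00415). Cdon was called at these 3 times with each digit left out in turn and in the joint fit of all 41 digits.

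Evc, a ciliary protein that works with Smo, was lower by -1.21 ± 0.27 at 6 hours (adjusted p = 0.0389), -1.59 ± 0.38 at 12 hours (adjusted p = 0.024) and -1.25 ± 0.29 at 24 hours (adjusted p = 0.0229). Its 0-hour digits spread from 10.5 to 28.1 normalized TPM, and these calls were lost in the joint fit of all 41 digits (adjusted p = 0.317, 0.0534 and 0.177) and in 6 of 6, 4 of 6 and 3 of 6 fits that left out a digit. The cilium transport gene Ift172 was lower at 24 hours by -1.02 ± 0.20 (adjusted p = 0.0117), from 27.4, 34.3 and 47.9 to 18.1, 13.5 and 21.7, and lost its call in the joint fit (adjusted p = 0.0704) and in 3 of 6 fits that left out a digit. Pthlh, the partner of Ihh in cartilage, rose at 24 hours by 2.27 ± 0.44 (adjusted p = 0.0116), from 1.29, 2.23 and 2.80 to 11.2, 7.52 and 10.2. Its call was lost in the joint fit (adjusted p = 0.256) and without replicate 1 at 24 hours (adjusted p = 0.063).

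Over the whole time course the edgeR F test called 3 of 32, Cdon (adjusted p = 0.00173), Gas1 (adjusted p = 0.00235) and Evc (adjusted p = 0.0284), beside 7.62% of all genes. Gas1, a further co-receptor, held 46.7, 58.4 and 57.6 normalized TPM at 0 hours, 22.4, 30.9 and 26.5 at 12 hours and 73.4, 73.4 and 88.7 at 21 days. The 12-hour digits lay below and the 21-day digits above those of 0 hours, as for 18.7% and 6.29% of all genes. The neutrophil, fibroblast and matrix markers that moved at 12 and 24 hours are given with Hhip above, and their part in these changes was not tested.

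**Figure D4:**
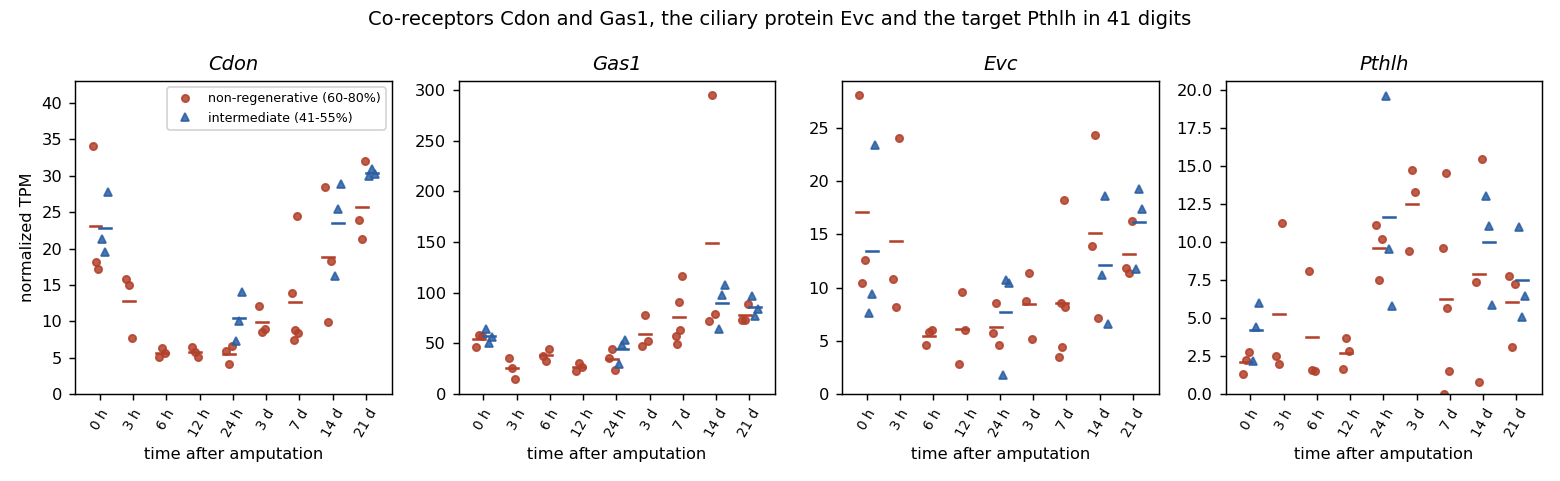
Normalized TPM of Cdon, Gas1, Evc and Pthlh by time after amputation, 1 point per digit, circles for non-regenerative and triangles for intermediate digits, bars for group means. Cdon lies between 4.14 and 6.63 in all non-regenerative digits at 6, 12 and 24 hours, and Pthlh is higher at 24 hours and 3 days than at 0 hours.

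In intermediate digits against their own 0 hours, 0 of 28, 30 and 29 tested genes were called (24 hours, 14 days and 21 days), beside 0.0152%, 1.68% and 1.39% of all genes, with 5, 5 and 4 at an unadjusted p under 0.05, as for 15.4%, 13.4% and 16.6% of all genes. The smallest p-values were those of Cdon and Scube1 at 24 hours (-1.14 ± 0.24, adjusted p = 0.12, and -1.42 ± 0.36, adjusted p = 0.15), Ccnd1 and Grem1 at 14 days, and Gas1 and Ccnd1 at 21 days. DESeq2 called Cdon and Scube1 at 24 hours and Grem1 at 14 days. Cdon in these digits was at 21.3, 19.5 and 27.8 normalized TPM at 0 hours and 7.36, 10.01 and 14 at 24 hours, in the order that 11.3% of all genes had. Of the 8 genes 0 of 6 tested were called in these 3 comparisons.

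Between the groups at the same time 0 other pathway genes were called by edgeR, with 0 of 29, 4 of 27, 0 of 31 and 7 of 32 at an unadjusted p under 0.05 (0 hours, 24 hours, 14 days and 21 days), beside 3.64%, 11.3%, 2.0% and 14% of all genes. The kinesin Kif3a, needed for the cilium, had the smallest p at 21 days, at -1.14 ± 0.24 in intermediate digits (adjusted p = 0.0817), and was called there by DESeq2. Spop, which targets Gli proteins for degradation, was next at -0.69 ± 0.15 (adjusted p = 0.0893). At 24 hours Cdon was at 0.85 ± 0.28 (adjusted p = 0.376) and Disp1, which releases ligand from its source cell, at 1.06 ± 0.38 (adjusted p = 0.392). The test of whether the time changes themselves differed between the groups, an interaction term over 24 digits, called 0 of 14768 genes, 0%, for each later time. At an unadjusted p under 0.05 there were 452, 1581 and 190 genes, and DESeq2 called 8, none of them in the pathway lists. For the level, the smallest p-values among the other pathway genes were those of Disp1 (-0.27 ± 0.12, adjusted p = 0.564) and Scube1 (-0.34 ± 0.15, adjusted p = 0.572).

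Genes whose levels were ordered most like a Hedgehog gene over the 41 digits were ranked among 13054 genes by Spearman correlation. For Ptch1 they were Slc31a1 (0.72), Ctnnb1 (0.70), Irs1 (0.68) and Cdk19 (0.67). For Gli1 they were Tnmd (0.81), Eya4 (0.80), Zfyve1 (0.76), Cdon (0.76) and Efs (0.76). For Ihh, at 0 in 22 digits, they were Tnfrsf13c (0.70), Gpr85 (0.65), Slc39a10 (0.64), Lgr4 (0.62) and Hoxc13 (0.62), and for Shh, at 0 in 36, none exceeded 0.51 (Capn1). Ctnnb1 encodes beta-catenin, Tnmd the tendon and ligament protein tenomodulin, and Hoxc13 a homeobox factor of nail and hair matrix. The digits share times, groups and depth.

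Macrophages expressed only part of the pathway. Ptch1, Smo and Gli3 passed the filter on low counts, whereas Shh had 1 count in 1 of 9 libraries and Ihh, Hhip, Gli1 and Gli2 had 15 counts or fewer in each. The 4 macrophage markers (Adgre1, Csf1r, Cd68, Mrc1) summed to 2907 normalized TPM or more in each library, and Krt5 and Krt1 were at 0 in all. Nothing in the sources says that the 3 libraries of a state came from separate mice, so these p-values measure the spread between libraries, which may be technical.

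In M1 against M0 macrophages Smo and Gli3 fell, 2 of the 3 genes tested, where 46.1% of all genes were called (26% lower). Smo held 9.16, 10.3 and 8.54 normalized TPM in M0 and 2.81, 2.30 and 2.45 in M1, a difference of -1.87 ± 0.11 (log2, SE, adjusted p = 1.07e-08). Gli3 held 1.80, 2.09 and 2.13 in M0 and 0.405, 0.488 and 0.373 in M1, a difference of -2.13 ± 0.16 (adjusted p = 6.96e-08). Ptch1 did not pass, at 0.12 ± 0.09 (adjusted p = 0.264). Its normalized TPM were 3.82 to 4.38 in M1 and 2.89 to 3.28 in M0, but the normalized TPM of all genes summed to 1331230 or more in each M1 library and to 820932 or less in each M0 library, so for these states the fitted counts are the comparison.

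In M2 against M0 none of the 3 genes passed the 2-fold limit, where 22.3% of all genes were called. Smo was higher by 0.60 ± 0.07 (adjusted p = 2.36e-05), Gli3 higher by 0.52 ± 0.08 (adjusted p = 0.000179) and Ptch1 lower by -0.74 ± 0.08 (adjusted p = 1.14e-05), all under 2-fold. M2 libraries held 14.7, 15 and 14.2 normalized TPM of Smo, 3.02, 3.04 and 3.10 of Gli3 and 2.36, 1.76 and 1.98 of Ptch1. Smo and Gli3 were thus below M0 in M1 and above it in M2, and these comparisons share the M0 libraries.

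Of 27 other pathway genes tested in macrophages, 12 were called in M1, 4 higher and 8 lower, and 5 in M2, 3 higher and 2 lower, beside the 46.1% and 22.3% of all genes called. The co-receptor Gas1 fell in M1 by 2.97 on the log2 scale (SE 0.19, adjusted p = 1.82e-08), from 6.54, 9.01 and 8.99 normalized TPM to 1.17, 1.1 and 0.852. Kif7, a kinesin of the cilium tip that acts on Gli proteins, fell by 2.48 (SE 0.20, adjusted p = 1.36e-07), and the BMP antagonist Grem1 rose by 2.63 (SE 0.08, adjusted p = 1.6e-11). Foxf1, a target in several tissues, rose from 1.1 ± 0.97 (SD, n = 3) to 49.2 ± 6.96 normalized counts in M1 (edgeR adjusted p = 3.67e-07) and from 1.42 ± 1.23 to 13.4 ± 2.88 in M2 (edgeR adjusted p = 0.000623), from a base of too few reads for a fold. In M2 Kif3a fell by 3.11 (SE 0.08, adjusted p = 2.04e-10), Ccnd1 rose by 1.46 (SE 0.09, adjusted p = 5.49e-08) and Stk36 fell by 1.18 (SE 0.21, adjusted p = 0.000327). Of the 11 cytoplasmic regulators 1 rose in M1 and 3 fell; the 1 was Stk36 and the 3 were Kif7, Evc and Evc2, of which Stk36, Evc and Evc2 were named for M1 after their values were seen.

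**Figure D5:**
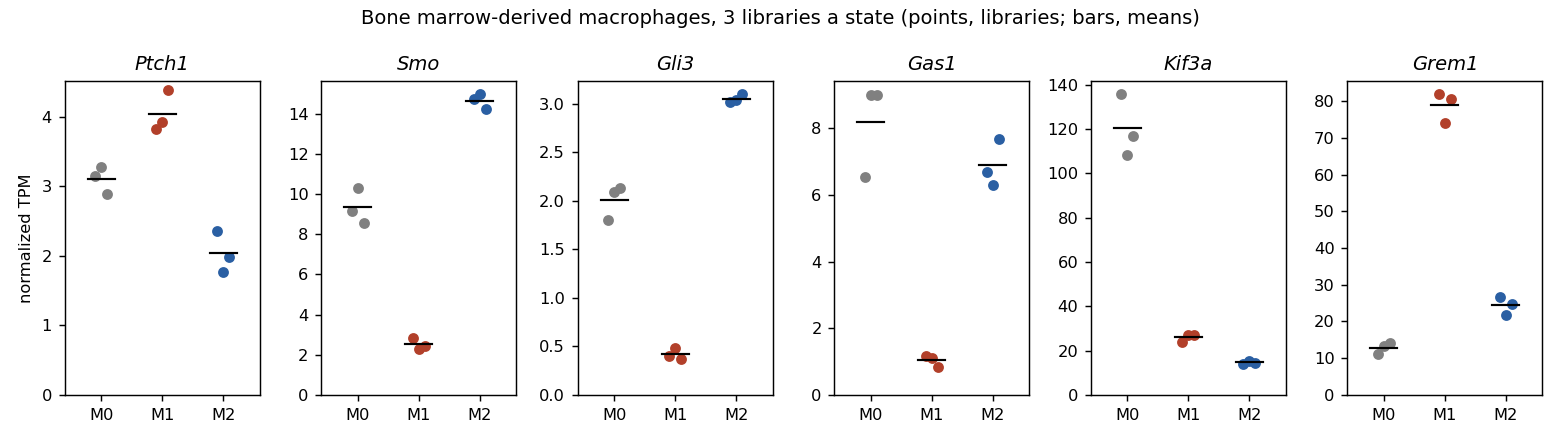
Normalized TPM of Ptch1, Smo, Gli3, Gas1, Kif3a and Grem1 in 9 macrophage libraries, 1 point per library, with bars for the means of M0, M1 and M2. Smo and Gli3 are lowest in M1 and highest in M2, and Kif3a is lower in M1 and M2 than in M0.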

How the data were processed

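Total RNA from digit wound beds and macrophages was made into poly A libraries by LM-Seq and sequenced single-end. The authors used Bowtie and RSEM 1.2.3 against an Ensembl mouse annotation, and the submitters' processing notes name CASAVA and mm10. They deposited 2 tables of 21954 genes: expected counts, estimated by RSEM and not normalized, and a normalized TPM signal that the authors scaled by median-by-ratio, so its columns do not share a total. Names of 26 genes that had become dates were restored from the transcript list. The authors' method for calling genes, EBSeq, was not used. Rounded expected counts were tested with edgeR 4.0.16 (R 4.3.3; filterByExpr, TMM, glmQLFit, glmQLFTest), with Benjamini-Hochberg adjustment over all genes tested, on the groups compared. Pair comparisons were called at an adjusted p under 0.05 and over 2-fold of the mean normalized count plus 1, and fits over time, level and interaction at an adjusted p under 0.05. Scripts were tested on simulated counts. DESeq2 1.42.0, RLE scaling, no filter, no fold limit, joint fits, a period term and leaving out each digit were alternatives.

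The 8 genes and all lists were chosen with earlier results of these data known. Named genes were the 8, and of the other pathway list up to 4 called genes with the largest fold change per comparison or, with none called, the 2 with the smallest p. The 5 genes most like Ptch1, Gli1, Shh and Ihh were taken among genes with a mean of at least 1 normalized TPM. Some genes that met these rules are not reported here. In macrophages same-numbered libraries did not deviate together (correlations of -0.07 to 0.07), so they were not paired. Floors cover counting error only.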

Additional observations from a re-analysis of the deposited data

Results flagged for a closer look

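Gli1 in non-regenerative digits at 7 days had 1 digit far from the other 4: replicate 4 held 5.29 normalized TPM (54 expected counts), while the others held 0, 0, 0.119 and 0.934, a gap of 0.823 of the group's range against a critical value of 0.71. Chance flags about 1 in 20 groups of this size. In the same digit Cdon was also the highest of the 5, at 24.4 against 7.43 to 14.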

How the results depend on the processing

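No direction of a called result reversed in any alternative. Genes of the 8 called in non-regenerative digits against 0 hours numbered 1 and became 2 with DESeq2 (Ptch1 joined Hhip at 12 hours). Other pathway genes numbered 4 and became 1 in the joint fit of 41 digits and 2 with the date period as a term. The numbers of all genes called in these alternatives are not given, so these counts have no background rate beside them. In intermediate digits against 0 hours DESeq2 called 3 other genes in place of 0, and between the groups 1 gene of the 8 and 1 other gene in place of 0, while all genes called rose from 291 to 902 and from 89 to 361. Over the time course genes of the 8 numbered 1 and became 2 with RLE scaling, 2 with DESeq2, 2 without the 14-day digits that share a label mark and 0 without the 2 digits that stand apart, and the other genes numbered 3 and became 5 with RLE scaling and 8 with DESeq2, where all genes called rose from 1100 to 2354 and 4398. In macrophages, with no fold limit, other genes became 22 in M1 and 20 in M2 and genes of the 8 3 in M2, and with no filter the other genes in M2 became 8. Of all genes tested, 86.3% in M1 and 76.6% in M2 had an unadjusted edgeR p under 0.05. With the replicate block M2 called 1 gene of the 8, Gli1, which enters that fit, and 6 other genes in place of 5, and M1 was the same at 2 and 12; the shared number was no pairing.

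With each replicate left out, genes of the 8 called ranged from 1 to 1 (non-regenerative times), 0 to 0 (intermediate times, between groups, level and interaction), 0 to 2 (time course), 2 to 2 (M1) and 0 to 1 (M2), and other genes from 2 to 7, 0 to 0 (intermediate times, level and interaction), 0 to 1 (between groups), 2 to 5 (time course), 12 to 12 and 5 to 8. The most, 7, came without non-regenerative replicate 1 at 0 hours and the fewest, 2, without replicate 3 at 0 hours or replicate 1 at 24 hours. Over the time course 0 of the 8 were called without any 1 digit of 0 hours, 3 hours, 24 hours or 21 days, without replicate 1 or 3 at 12 hours, replicate 2 at 6 hours, replicate 2 at 3 days, or replicate 1 or 3 at 7 days. Over single genes given with a test (the other pathway genes, and all genes in macrophages) 27 fits lost a call and 3 gained it, and the cause was not tested. Leaving out digits chosen by depth, by scaling or by shared mark, and fits within dates or shared times, were added after seeing the data. Shallow digits limit Shh, Ihh, Gli1 and Gli2, which rest on few reads.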

Other observations

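Dhh, the remaining Hedgehog ligand and a product of Schwann cells, was chosen for description after its values were seen and reached at most 2.90 normalized TPM in a digit. Intermediate digits held 0.615, 1.02 and 0.650 normalized TPM at 24 hours and non-regenerative digits 0.248, 0.250 and 0, which did not overlap, and at 0 hours they held 0.346, 0.287 and 1.25 against 2.90, 0.419 and 0.472. At 24 hours 8.72% of 13691 genes lay wholly higher in the intermediate digits. Those genes had a mean of at least 1 normalized TPM over the digits, whereas Dhh had group means of 0.76 and 0.17 at 24 hours. Dhh overlapped the annotated gene Rhebl1 on the same strand. Dhh did not pass the filter on low counts in that comparison or in any comparison with 0 hours, so it was not tested there.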
